A study of Mus musculus with 2 samples.

Results

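The cells described here are 149 macrophages from infarcted mouse hearts that carried none of 5 transcripts used to mark T and B cells. They were chosen by their transcripts: a barcode (1 captured cell) was kept with at least 300 genes, at least 500 UMIs (tags that count RNA molecules singly) and at most 10% mitochondrial UMIs. Members were selected on at least 5 summed UMIs of C1qa, C1qb, C1qc and Lyz2 and on 0 UMIs of Cd3d, Cd3e, Cd3g, Trac and Cd79a. They numbered 47 of 4309 kept barcodes in the anti-IgG library and 102 of 5835 in the anti-PD1 library, out of 10144 in all. Both libraries came from hearts of wild-type mice on day 7 after MI (myocardial infarction, in which part of the heart muscle dies for want of blood). The anti-PD1 mice received a blocking antibody to PD1, an inhibitory receptor that Pdcd1 encodes, and the anti-IgG mice served as controls. The age of the mice, the number of hearts pooled and the dose are not given in the sources used here. The labels call the cells T cells and the series design says that T cells were sorted, whereas the protocols name a digest, lysis of red cells and a dead cell removal step but no sort. These macrophages are therefore what remained beside the T cells, and how their recovery compares with the heart's own makeup cannot be told apart from the preparation.

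Each group was 1 library. No difference below has a replicate check, no p-value is given, and the treatment cannot be told apart from the library, its hearts and its handling. Every interval is an exact 95% counting interval, which leaves out variation between animals, between preparations and, for gene ratios, between cells. The deposited libraries held 4380 and 6026 barcodes with 22806806 and 29046341 UMIs in total. The members held 300175 anti-IgG and 547307 anti-PD1 UMIs. Their median depth was 5254 UMIs per cell (973 to 28820) in the anti-IgG and 5344 (641 to 15975) in the anti-PD1 library. Of all barcodes, 47 sequences occurred in both libraries, and 0 of them were members in both.

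Heart macrophages are of mixed origin. Resident macrophages settle before or soon after birth, renew themselves locally and are known in mice by Timd4, Lyve1 and Folr2 (the TLF genes), while monocytes recruited through the chemokine receptor Ccr2 enter after injury and can become macrophages. After infarction these cells clear dead muscle, secrete cytokines and chemokines and later support scar formation. Macrophages also sense damage through Toll-like receptors, whose signal reaches the nucleus through NF-kB, a family of transcription factors held back by inhibitors such as those encoded by Nfkbia and Tnfaip3.

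The label of macrophage was checked on genes that the selection did not use. Csf1r, the receptor for the macrophage growth factor, had a UMI in 43 of 47 anti-IgG and 84 of 102 anti-PD1 members, against 0.159% and 0.355% of T cells in the same libraries (median depths 4035 and 3858 UMIs). Adgre1, which encodes F4/80, had one in 39 and 65 members. The 11 genes of the macrophage marker list were all detected in both libraries. Their summed level was 320.1 UMIs per 10000 in anti-IgG and 331.7 in anti-PD1 members, against 0.129 and 0.165 in T cells. This contrast is a description only, since the list includes the selecting genes. The T cells were also chosen with at most 1 UMI of those genes, so both selections set most of it. By the selecting genes themselves, as a description only, the members had medians of 165 and 149 summed UMIs, and 2 and 3 of them had under 10. Just outside the threshold, 1 anti-IgG and 4 anti-PD1 barcodes had 3 or 4 such UMIs and no lymphocyte transcript. Of the members, 8 anti-IgG and 3 anti-PD1 cells had no C1q UMI and entered through Lyz2, a gene that monocytes share. In 7 of those 8 anti-IgG cells Ccr2 was detected without the TLF genes.

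Markers of several other cell types were at or near 0 in the members, whereas genes of the B cell, fibroblast and plasmacytoid dendritic lists were seen in many members. All markers of natural killer cells, mast cells and red cells were at 0 in both libraries. The 15 T cell markers summed to 20 UMIs in anti-IgG and 14 in anti-PD1 members, and those of neutrophils to 5 and 25. Of the T cell markers, Cd3d, Cd3e, Cd3g and Trac were at 0 by the selection itself. B cell markers, mostly Ighm, had a UMI in 53.2% of anti-IgG and 41.2% of anti-PD1 members (43 and 92 UMIs). Among them Ms4a1 was at 0, and Cd79a was at 0 by the selection itself. Fibroblast markers, mostly Gsn, were seen in 46.8% and 51.0% of members (63 and 100 UMIs), and plasmacytoid dendritic markers in 46.8% and 47.1% (91 and 105 UMIs). All 6 plasmacytoid markers were detected in both libraries. They summed to 3.03 UMIs per 10000 in anti-IgG and 1.92 in anti-PD1 members, against 1.43 and 1.06 in T cells. The neutrophil genes S100a9, Cxcr2 and Ly6g were at 0 in both libraries. Cd209a, a gene of conventional dendritic cells and some monocytes, had 41 UMIs in 3 anti-IgG members and 7 in 1 anti-PD1 member, while Xcr1 and Clec9a were at 0. Heart muscle markers summed to 0.2 UMIs per 10000 in anti-IgG and 1.24 in anti-PD1 members, and endothelial markers to 3.66 and 0.749, where Fabp4 held most of the anti-IgG sum. The part of these transcripts in the differences below was not tested.

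The members made up 1.09% of the kept anti-IgG barcodes (interval 0.803 to 1.45) and 1.75% of the anti-PD1 barcodes (1.43 to 2.12). Barcodes with at least 5 UMIs of the selecting genes numbered 172 and 238, so that 27.3% and 42.9% of them were free of lymphocyte transcripts. The other 125 and 136 barcodes carried both macrophage and lymphocyte transcripts at median depths of 11834 and 12718.5 UMIs, more than 2 times the depth of the members, and only 3 and 6 of them had a single lymphocyte UMI. In those barcodes a macrophage and a T cell cannot be told apart from a macrophage that holds T cell RNA. The members are thus the shallower and the smaller portion of the macrophage transcripts in both libraries.

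Classes of members were read from single genes: TLF members with a UMI of Timd4, Lyve1 or Folr2, Ccr2 members with Ccr2 and none of the TLF genes, and members with neither. TLF members were 20 of 47 anti-IgG cells (42.6%, interval 28.3 to 57.8) and 48 of 102 anti-PD1 cells (47.1%, 37.1 to 57.2). Ccr2 members were 12 (25.5%, 13.9 to 40.3) and 19 (18.6%, 11.6 to 27.6), and 15 and 35 had neither. The intervals of each class overlapped widely between the libraries. A class read from few UMIs depends on depth: 5 and 7 TLF members and 3 and 7 Ccr2 members rested on 1 defining UMI, and members with neither had lower median depths (3860 and 2785 UMIs) than TLF members (5394.5 and 5424). With each member thinned to 1000 UMIs, leaving out 1 anti-IgG and 9 anti-PD1 members that were shallower, the TLF share was 28.3% (16.0 to 43.5) against 44.1% (33.8 to 54.8) and the Ccr2 share 13% (4.94 to 26.3) against 6.45% (2.40 to 13.5). As background for these genes, Folr2 occurred in 0 of 3785 T cells of the anti-IgG and 1 of 5067 of the anti-PD1 library and Lyve1 in 1 and 2, whereas T cells express Ccr2 themselves and held it in 25.2% of cells in both libraries.

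**Figure D1:**
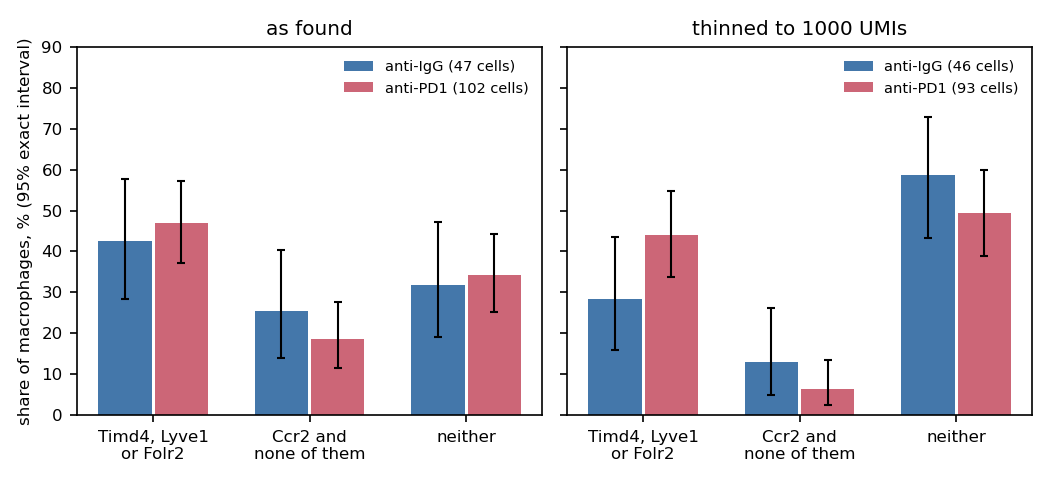
Share of macrophages in each class, in percent, for the anti-IgG and anti-PD1 library, as found (left) and with every cell thinned to 1000 UMIs (right); bars start at 0 and lines are exact 95% intervals. The intervals of the libraries overlap in every class, and thinning lowers the TLF share from 42.6% to 28.3% in anti-IgG and from 47.1% to 44.1% in anti-PD1 cells.

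The classes differed in many genes beside those that define them, in both libraries. Levels were compared as summed UMIs per 10000, and a gene was counted where the ratio between TLF and Ccr2 members was at least 1.5 in both libraries. Of 13 measured resident macrophage genes other than the defining ones, 10 were higher in TLF members and 0 in Ccr2 members, where 9.86% of all 3175 genes were higher in TLF members in both libraries. Cbr2, a carbonyl reductase of resident macrophages, was at 12 in TLF and 0.944 in Ccr2 members of the anti-IgG library and at 20.3 and 0.357 in the anti-PD1 library. F13a1, the transglutaminase factor XIII, was at 18.7 against 7.36 and at 27.5 against 4.50. Gas6, which bridges dying cells to the receptor Mertk, was at 3.69 against 0.472 and at 4.11 against 0.286. These genes were higher in TLF members by 2.55 to 56.9 times. Lists for lipid-associated macrophages (10 of 17 genes higher in TLF members) and iron handling (5 of 9) leaned the same way. The iron count includes Hmox1, which degrades haem, but 1 cell held 193 of the 255 UMIs of Hmox1 in TLF members of the anti-IgG library.

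Ccr2 members carried the monocyte and antigen-presentation genes. Of 17 monocyte-derived genes other than Ccr2, 11 were higher in Ccr2 members in both libraries and 0 in TLF members, where 8.38% of all genes were. Plac8, a gene of recruited monocytes, was at 12.4 in Ccr2 members and at 0 in TLF members of the anti-IgG library, and at 8.42 and 0.769 in the anti-PD1 library, where 1 TLF cell held all 20 of its UMIs. Ly6c2, the Ly6C antigen of inflammatory monocytes, was at 12.8 against 0 and at 3.64 against 0.461, with all 12 anti-PD1 TLF UMIs in that same cell. Class II genes, which present antigen to CD4 T cells, were higher in Ccr2 members for 6 of 8 measured genes. Cd74, the chain that escorts class II molecules, was at 154 in Ccr2 and 70.5 in TLF members of the anti-IgG library and at 215 and 42.1 in the anti-PD1 library. One limit is that 1 anti-IgG Ccr2 member without a Csf1r UMI held 191 of the 1051 H2-Aa UMIs of all anti-IgG members. The part of dendritic-like cells in these class II levels was not tested. Of 10 glycolysis and hypoxia genes 5 were also higher in Ccr2 members.

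Clustering of the members gave 4 clusters, which describe the same axis and 2 further states. The clusters were built on 1000 variable genes of these same cells, so the genes below describe them and are not tested. Cluster 3 (28 cells, 13 anti-IgG and 15 anti-PD1) was monocyte-derived-like, with 15 markers of that list, led by Plac8, Ly6c2 and Vcan. In it 20 cells were Ccr2 members and 10 lacked C1q, and 15 type I interferon genes and 7 class II genes also marked it. Cluster 0 (58 cells, 27 and 31) was resident-like, with 7 resident markers, and was led by Ephx1, Lilra5 and Txnip, with Cxcl2 in only 4 of its cells. Cluster 1 (32 cells, 6 and 26) was lipid-associated-like, with 13 markers, led by Gpnmb, a lysosomal glycoprotein, and including Spp1, which encodes osteopontin. Trem2, a lipid-sensing receptor, was seen in 30 of its 32 cells, but Gpnmb and Spp1 in only 13 each. For Gpnmb, 1 cell held 75 of the 136 UMIs of the cluster. Cluster 2 (31 cells, 1 and 30) was resident-like with 12 markers, Lyve1 in 22 cells and Timd4 in 13, but the genes Egr2, Hspa1b, Cxcl1 and Hspa1a of early activation, heat shock and inflammation led it. Since all but 1 of its cells came from the anti-PD1 library, it may be that library and not a type of cell. Cluster sizes were not compared between the libraries, because their defining genes were themselves higher in 1 library.

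The comparison between the libraries asked how macrophage transcription differed after PD1 blockade. In 2525 genes with at least 50 summed UMIs, the ratio of anti-PD1 over anti-IgG level was at least 1.5 in 248 genes (9.82%) and at most 1/1.5 in 388 (15.4%), with a median log2 ratio of -0.13 over all of them. These shares over all genes are the background for every count of list genes below. Ribosomal RNA took 7.18% of the UMIs of anti-IgG and 10.6% of those of anti-PD1 members. Ribosomal protein genes took 10.1% and 9.40%, and mitochondrial genes 1.78% and 1.67%.

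Genes of acute inflammation had the highest ratios of anti-PD1 over anti-IgG level. Cxcl2, a chemokine that attracts neutrophils, stood at 4.96 UMIs per 10000 (149 UMIs in 15 of 47 cells) in anti-IgG and 51.5 (2820 UMIs in 54 of 102 cells) in anti-PD1 members. Its ratio was 10.4 (interval 8.80 to 12.3). Single anti-IgG cells ran from 0 over a median of 0 to 51.8 and single anti-PD1 cells from 0 over a median of 5.55 to 350.7, so that the ranges overlap while the high values were in the anti-PD1 library. Il1b, the cytokine interleukin-1 beta, stood at 1.27 (38 UMIs in 8 cells) and 12.4 (681 UMIs in 37 cells), a ratio of 9.83 (7.09 to 14.0), with a highest single cell of 18.3 and 115.1. Nlrp3, the inflammasome sensor that leads to interleukin-1 beta release, stood at 0.4 and 2.78, a ratio of 6.95 (3.86 to 13.7). In T cells of the same libraries, Cxcl2 was seen in 1.32% and 2.51% of cells and Il1b in 0.0793% and 0.355%. These are far below the shares in members (31.9% and 52.9% for Cxcl2, 17.0% and 36.3% for Il1b). The T cells with Cxcl2 numbered 50 and 127 and held 309 and 845 of its UMIs, and those with Il1b numbered 3 and 18 and held 11 and 183. Whether these were free RNA, mixed barcodes or RNA of the T cells was not tested. After thinning to 1000 UMIs, Cxcl2 had a UMI in 19.6% (9.36 to 33.9) of members in the anti-IgG and 48.4% (37.9 to 59.0) in the anti-PD1 library, and Il1b in 10.9% (3.62 to 23.6) and 25.8% (17.3 to 35.9).

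**Figure D2:**
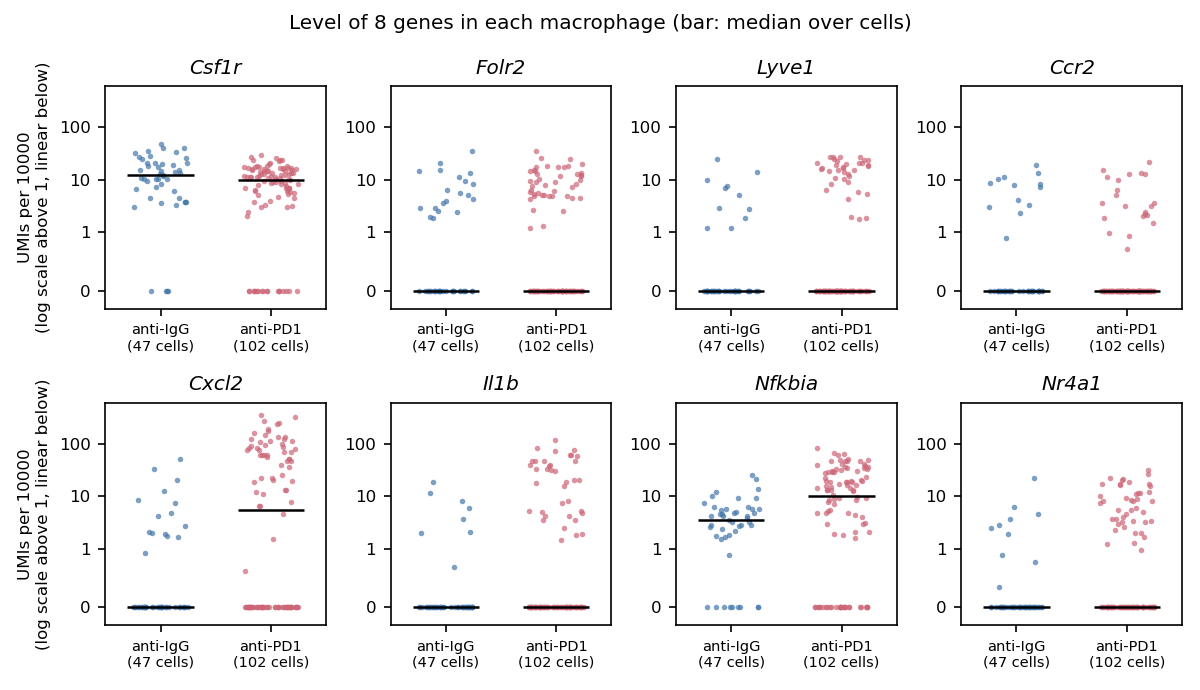
Level of 8 genes in each macrophage, in UMIs per 10000 UMIs of the cell (axis logarithmic above 1 and linear below), for 47 anti-IgG and 102 anti-PD1 cells; each point is a cell, spread sideways at random, and the bar is the median over cells. Csf1r has medians of 12.1 and 10.1, whereas Cxcl2 reaches 51.8 in anti-IgG and 350.7 in anti-PD1 cells.

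Of 9 measured inflammatory mediators 8 were higher and 0 lower by 1.5 times, with a median log2 ratio of 2.80. Over all genes 9.82% were higher and 15.4% lower by this fold. Tnf, the cytokine TNF, stood at 0.233 in anti-IgG and 1.43 in anti-PD1 members (7 and 78 UMIs), a ratio of 6.11 (2.83 to 15.7). Ptgs2, the cyclooxygenase that starts prostaglandin synthesis, had 3 UMIs in 3 anti-IgG cells and 171 in 14 anti-PD1 cells, of which 110 lay in 3 cells, a ratio of 31.3 (10.5 to 153). Cd14, a co-receptor for bacterial lipopolysaccharide, stood at 9.69 and 31.8, a ratio of 3.28 (2.90 to 3.73), and was seen in 38 and 81 cells. Tlr2, a Toll-like receptor, had a ratio of 2.67 (1.88 to 3.89). Casp1, which cleaves pro-interleukin-1 beta, had a ratio of 0.811 (0.464 to 1.44) and was the 1 measured gene of the list below the median of all genes. In all, 2 of the 8 rested on few cells: Saa3, an acute-phase protein, had 447 of its 458 anti-PD1 UMIs in 1 cell, and Il1a had 0 UMIs in anti-IgG members and 47 of 52 in 3 anti-PD1 cells.

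Among 13 measured chemokine genes 5 were higher and 3 lower, with a median log2 ratio of 0.50, where 9.82% of all genes were higher and 15.4% lower. Beside Cxcl2, Ccl3 and Ccl4, which attract monocytes and T cells, stood at 0.766 against 4.86 and at 2.00 against 11.0, ratios of 6.34 (4.14 to 10.2) and 5.51 (4.22 to 7.31). Cxcl1 had 4 UMIs in anti-IgG and 191 in anti-PD1 members, a ratio of 26.2 (10.1 to 97.1), and Cxcl3 had 6 and 64. The monocyte attractants Ccl2 and Ccl7 did not follow them over all members: Ccl2 stood at 8.33 against 4.68, a ratio of 0.562 (0.470 to 0.671), and Ccl7 at 6.43 against 3.76, a ratio of 0.585. Both ratios rested on few anti-IgG cells, since 3 cells held 204 of the 250 anti-IgG Ccl2 UMIs and 178 of the 193 Ccl7 UMIs. With every cell weighted alike the ratios were 1.02 and 0.975, and without the 5 members highest in inflammatory genes in each library 1.31 and 2.37. Within TLF members Ccl2 stood at 3.45 against 8.11, a ratio of 2.35 (1.69 to 3.33), and Ccl7 at 1.41 against 6.49, a ratio of 4.6 (2.82 to 7.95). Within Ccr2 members the ratios were 0.0849 and 0.0562. The direction was thus opposite in these classes, but 1 cell held 41 of the 44 Ccl2 UMIs in anti-IgG TLF members and another 117 of the 205 in anti-IgG Ccr2 members, and the difference was not tested.

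Of 23 measured immediate early genes, which respond to signals within minutes, 18 were higher and 0 lower. All 23 had a ratio above 1, with a median log2 ratio of 1.33. Over all 2525 genes, 9.82% were higher, 15.4% were lower and 961 had a ratio above 1. Several of the immediate early genes act in NF-kB feedback. Tnfaip3, which encodes A20, stood at 0.733 and 4.88 (12 and 57 cells), a ratio of 6.66 (4.31 to 10.8). Nfkbia, which encodes the inhibitor IkB-alpha, stood at 4.66 and 18.8 (38 and 74 cells), a ratio of 4.04 (3.38 to 4.85). Nfkbiz and Nfkbid, further members of the IkB family, had ratios of 4.35 (3.24 to 5.97) and 5.21 (2.25 to 14.8). The nuclear receptor gene Nr4a1 stood at 1.10 and 4.68, a ratio of 4.25 (2.95 to 6.31). Egr1, a transcription factor of growth-factor signalling, stood at 1.97 and 8.99, a ratio of 4.57 (3.49 to 6.10). Of the AP-1 subunits, Junb stood at 11.2 and 29.1, a ratio of 2.61 (2.32 to 2.94), and Fosl2 had a ratio of 3.12, while Fos and Jun themselves had ratios of 1.29 (1.17 to 1.41) and 1.29 (1.15 to 1.45), under the fold used here. Among cAMP and CREB response genes 6 of 10 were higher, but 5 of those 6, Nr4a1, Fosl2, Ptgs2, Vegfa and Thbs1, stand in other lists too. The other was Pde4b, a cAMP-degrading phosphodiesterase (2.09), and Crem had too few UMIs to be measured. Of the rest, Sik1 and Per1 had ratios of 1.13 and 1.17.

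Sequences upstream of the start site are shown for 4 of these genes, chosen after their values were seen, because they encode chemokines and NF-kB inhibitors with high ratios and because a published NF-kB consensus of 10 letters lies in each. The sequences are RefSeq's, build GRCm38.p6, 250 bases before the start, 5′ to 3′ on the gene's strand, with capitals for bases that match the NF-kB consensus or the AP-1 motif TGANTCA.
Cxcl1, chr5:90890995-90891244, plus strand: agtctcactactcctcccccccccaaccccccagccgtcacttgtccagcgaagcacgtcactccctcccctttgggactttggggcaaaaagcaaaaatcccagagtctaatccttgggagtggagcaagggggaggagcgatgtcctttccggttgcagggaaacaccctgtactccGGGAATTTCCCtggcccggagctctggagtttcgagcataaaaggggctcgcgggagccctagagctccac
Cxcl2, chr5:90903649-90903898, plus strand: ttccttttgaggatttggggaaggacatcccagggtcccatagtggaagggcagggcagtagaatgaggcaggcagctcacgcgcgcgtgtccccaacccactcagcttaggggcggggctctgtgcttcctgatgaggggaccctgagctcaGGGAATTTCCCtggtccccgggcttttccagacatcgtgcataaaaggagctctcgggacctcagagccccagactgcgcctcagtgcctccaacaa
Tnfaip3, chr10:19015411-19015660, minus strand: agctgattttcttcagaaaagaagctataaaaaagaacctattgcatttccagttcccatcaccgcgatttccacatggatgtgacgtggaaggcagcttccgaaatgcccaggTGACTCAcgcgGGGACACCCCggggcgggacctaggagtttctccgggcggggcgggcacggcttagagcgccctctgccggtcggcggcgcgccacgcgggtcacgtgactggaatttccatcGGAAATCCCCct
Nfkbia, chr12:55492648-55492897, minus strand: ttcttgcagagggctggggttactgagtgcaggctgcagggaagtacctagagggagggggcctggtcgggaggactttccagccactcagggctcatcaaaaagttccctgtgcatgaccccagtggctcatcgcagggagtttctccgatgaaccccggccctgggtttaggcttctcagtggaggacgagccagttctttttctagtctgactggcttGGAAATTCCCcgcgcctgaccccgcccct

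In Cxcl1 and Cxcl2, neighbours on chromosome 5, the consensus matched on both strands with an offset of 1 base, which gives the same run of 11 capitals, 71 to 61 bases before the start of Cxcl1 and 97 to 87 before that of Cxcl2. Tnfaip3 held matches 125 to 116 and 12 to 3 bases before its first start, with an AP-1 match at 136 to 130, and none in the window of its second start. Nfkbia held 1 match, 29 to 20 bases before its start. Over both strands, 7 of the 15 higher immediate early genes with a promoter entry held the consensus (46.7%: Fosb, Fosl2, Ier3, Rel, Nfkbia, Nfkbid and Tnfaip3), 2 of 7 higher inflammatory mediators (Nlrp3 and Tlr2), 3 of 4 higher chemokines (Cxcl1, Cxcl2 and Cxcl3) and 0 of 10 of the genes with the lowest ratios. Of all 27025 genes with an entry, 4.46% held it, and of 2034 genes measured in the members 6.93%. In all, 7 motifs were searched. The consensus was added after the looser 10-letter NF-kB pattern was seen to match 48.7% of all genes, and the sets of chemokines and of highest and lowest genes were added after the first counts, so the shares are a description. AP-1 was found in 6.67% of the higher immediate early genes and 7.82% of all genes, the cAMP element TGACGTCA in 6.67% (Nfkbid) and 1.77%, and the Nr4a element AAAGGTCA in 0% and 1.55%. Il1b, Ptgs2, Tnf, Junb and Nr4a1 held none of these 4 motifs in this window, which says only that these letters are not in it.

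The 12 genes with the highest ratios were named by a rule that asked for at least 10 cells with the gene and for no cell with over 25% of its UMIs in a library. Beside Cxcl2, Nlrp3, Tnfaip3 and Nfkbiz they were Gadd45b, a stress-induced gene (0.300 against 2.61, ratio 8.71, interval 4.46 to 19.4), Etv3, an ETS-family repressor (6.14, 2.48 to 19.7), and Irf1, an interferon regulatory factor (5.85, 2.96 to 13.2). Tns1, which links the cytoskeleton to adhesions, had a ratio of 4.80 (2.31 to 11.6), Bcl3, a nuclear IkB protein, 4.66 (2.24 to 11.2) and Dusp5, a phosphatase of ERK kinases, 4.39 (2.10 to 10.6). Marcksl1, an actin-binding protein, followed at 4.27 (2.97 to 6.34) and Zc3h12a, which encodes the ribonuclease Regnase-1 that degrades cytokine transcripts, at 4.07 (2.22 to 8.17).

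The 12 genes with the lowest ratios have varied roles. Ddit4, a stress-induced inhibitor of the growth kinase mTORC1, stood at 3.0 in anti-IgG (28 of 47 cells) and 0.603 in anti-PD1 members (16 of 102 cells), a ratio of 0.201 (0.131 to 0.303). After thinning it was seen in 37.0% (23.2 to 52.5) and 5.38% (1.77 to 12.1) of members. Napsa, an aspartic protease, had a ratio of 0.291 (0.174 to 0.478), and 70 of its 75 UMIs lay in the monocyte-derived-like cluster 3. Marchf1, the ubiquitin ligase that takes class II molecules off the surface, had a ratio of 0.390 (0.249 to 0.606), and Gsr, glutathione reductase, 0.398 (0.238 to 0.658), or 0.796 among members with C1q. The other 8 were Fgl2 (0.290), Mlec (0.320), Selenos (0.349), Arrdc3 (0.370), Rcbtb2 (0.376), Stk4 (0.376), Prpf4b (0.381) and Dusp11 (0.407).

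**Figure D3:**
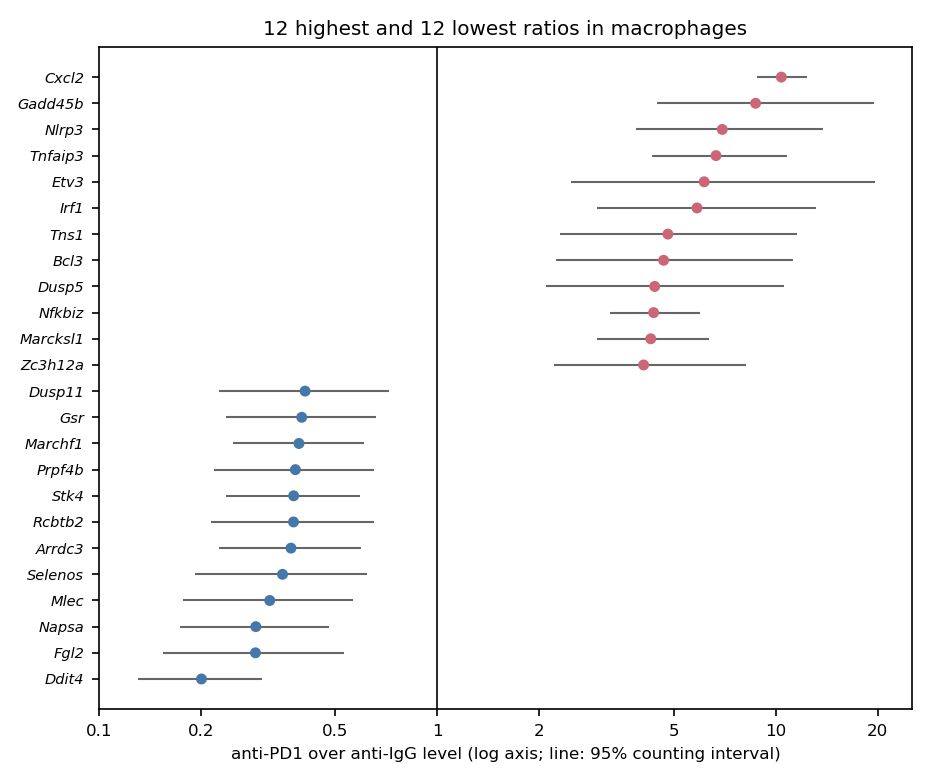
Ratio of the anti-PD1 over the anti-IgG level (log axis) for the 12 genes with the highest and the 12 with the lowest ratios in macrophages; points are ratios and lines 95% counting intervals, with no replicate behind them. The ratios run from 10.4 for Cxcl2 down to 4.07 for Zc3h12a and from 0.407 for Dusp11 down to 0.201 for Ddit4.

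The resident and monocyte-derived lists were each split. Of 14 resident genes 5 were higher and 2 lower, with a median log2 ratio of 0.21, where 9.82% of all genes were higher and 15.4% lower. Lyve1, the hyaluronan receptor, stood at 1.40 in anti-IgG (42 UMIs in 11 cells) and 6.05 in anti-PD1 members (331 UMIs in 36 cells), a ratio of 4.32 (3.13 to 6.11). It was seen in 23.4% (12.3 to 38.0) and 35.3% (26.1 to 45.4) of members, intervals that overlap, and its highest single cells were at 25.1 and 27.5. Fcna, which encodes ficolin A, had a ratio of 5.17 (2.37 to 13.4), Folr2, the folate receptor beta, 1.62 (1.27 to 2.08; 1.31 among members with C1q) and Cbr2 1.80 (1.52 to 2.15), whereas the platelet factor Pf4 had 0.630 (0.555 to 0.716) and the lectin gene Mgl2 0.588. Of 16 monocyte-derived genes 6 were higher and 7 lower, with a median log2 ratio of -0.31. Among the lower ones, Ly6c2 stood at 4.53 and 1.15, a ratio of 0.254 (0.185 to 0.345). Vcan, which encodes versican, stood at 1.40 and 0.347 (0.248, 0.136 to 0.436), and Ccr2 at 3.10 and 1.64 (0.531, 0.393 to 0.717). The ratios of Ly6c2 and Vcan rested on few cells: 3 cells held 110 of the 136 anti-IgG UMIs of Ly6c2 and 41 of the 42 of Vcan. Among members with C1q the ratio of Ccr2 was 0.903, that of S100a4 0.916 and that of S100a6 0.924, so for these 3 the difference lay with the cells without C1q, of which anti-IgG had 8 and anti-PD1 3. The higher ones were Il1b (9.83), Nr4a1 (4.25), Thbs1 (2.64), Clec4e (2.19), Fn1 (1.79) and Chil3 (1.68), so the list as a whole had no single direction. For Fn1, 1 anti-PD1 cell held 151 of 336 UMIs. Thbs1 was seen in 17.0% of anti-IgG and 14.7% of anti-PD1 members, and 3 anti-PD1 cells held 260 of its 371 UMIs there. The interval of Chil3, 0.904 to 3.33, included 1.

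Core macrophage genes were mixed, with 3 of 20 higher and 4 lower, where 9.82% of all genes were higher and 15.4% lower. Maf, a transcription factor of resident macrophages, stood at 4.16 and 1.85, a ratio of 0.443 (0.338 to 0.581), Fcgr1, the high-affinity Fc receptor, at 2.93 and 1.43 (0.486, 0.354 to 0.667), and Cx3cr1, the fractalkine receptor, had a ratio of 0.620. Csf1r stood at 12.7 and 11.0 (0.869). Class II genes had 0 of 7 past the fold, with H2-Aa at 35 and 27.9 (0.798), and lysosomal genes 0 of 20, with Ctsb, a cathepsin, at 41.9 and 40.8 (0.972). By class, H2-Aa had a ratio of 0.559 (0.471 to 0.665) in TLF and 1.53 (1.37 to 1.71) in Ccr2 members, a difference that was not tested. The selecting genes C1qa, C1qb, C1qc and Lyz2 had ratios of 1.23, 1.25, 1.19 and 0.872, given as a description.

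Lipid-associated and iron genes were mostly under the fold. Trem2 stood at 2.47 and 4.46, a ratio of 1.81 (1.39 to 2.38; 1.03 in TLF members only), and Gpnmb at 0.866 and 2.19, a ratio of 2.53, where 3 anti-IgG cells held all 26 UMIs and 1 anti-PD1 cell held 75 of 120. Spp1 had a ratio of 1.19 (0.948 to 1.5), or 3.25 with every cell weighted alike, since 3 anti-IgG cells held 108 of its 114 UMIs. Hmox1 stood at 10.5 and 3.67 (0.351, 0.293 to 0.420), but 3 anti-IgG cells held 259 of 314 UMIs, and with every cell weighted alike the ratio was 0.744. The ratio of Fabp4, 0.2, rested on 3 anti-IgG cells with 79 of 85 UMIs and turned to 1.27 when the barcodes with the highest doublet scores were left out. Of 12 repair and growth factor genes 6 were higher and 0 lower, where 9.82% of all genes were higher and 15.4% lower. Several of the 6 rested on few cells: 3 anti-PD1 cells held 260 of 371 UMIs of Thbs1 and 238 of 336 of Fn1. For Chil3, 1 anti-PD1 cell held 17 of 43 UMIs. Tgfb1, which drives scar formation, stood at 2.33 and 3.51 (1.5, 1.14 to 2.01), at the edge of the fold, and was under it in 5 alternatives, down to 1.12 after thinning. Igf1, a growth factor, stood at 1.97 and 2.01 (1.02). Vegfa, the vessel growth factor, had 3 and 52 UMIs, of which 38 lay in 3 cells, and Retnla had 0 and 154, of which 139 lay in 1 cell.

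Glycolysis and hypoxia genes had 0 of 10 above a ratio of 1 and 4 past the fold. Pkm, pyruvate kinase, stood at 7.1 and 3.89 (0.548, 0.451 to 0.666), Gapdh at 10.4 and 7.35 (0.709, 0.610 to 0.825) and Hif1a, the hypoxia-inducible factor, at 2.23 and 0.950 (0.426, 0.290 to 0.621). The median log2 ratio of the list was -0.56 against -0.13 over all genes. Type I interferon genes had 0 of 14 higher and 2 lower, Isg15 (0.573) and Ifi209 (0.371), and interferon gamma genes 1 of 9 higher, Irf1. Of 14 measured heat shock and unfolded protein response genes 5 were higher (Hspa1a, Hspa1b, Dnajb1, Hsph1 and Atf4) and 3 lower (Xbp1, Sdf2l1 and Pdia4), with a median log2 ratio of 0.41. Hspa1a and Hspa1b, which encode inducible Hsp70, stood at 1.97 against 6.03 (3.07, 2.32 to 4.12) and 0.933 against 3.09 (3.31, 2.21 to 5.13), and Atf4, a transcription factor of the stress response, had a ratio of 1.57. Of the anti-PD1 UMIs, 3 cells held 138 of 330 for Hspa1a and 106 of 169 for Hspa1b. The ratios of Xbp1, Sdf2l1 and Pdia4 were 0.508, 0.430 and 0.431, and that of Hspa5, which encodes the chaperone BiP, was 0.833. Among checkpoint genes, Pdcd1, the target of the antibody, had 0 UMIs in all 149 members, and its ligand gene Cd274 had 1 and 7 UMIs. Tnfsf9, a ligand that costimulates T cells, had 4 UMIs in 4 anti-IgG cells and 158 in 26 anti-PD1 cells, of which 87 lay in 3 cells. The remaining lists had few genes past the fold: 1 higher and 1 lower of 10 complement genes, 0 and 2 of 9 Fc receptor genes, 0 and 1 of 15 efferocytosis and scavenger genes, 0 and 1 of 8 lipid metabolism genes, 1 and 2 of 9 iron genes, and 0 and 2 of 3 cell cycle genes. Over all genes the shares were 9.82% higher and 15.4% lower.

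**Figure D4:**
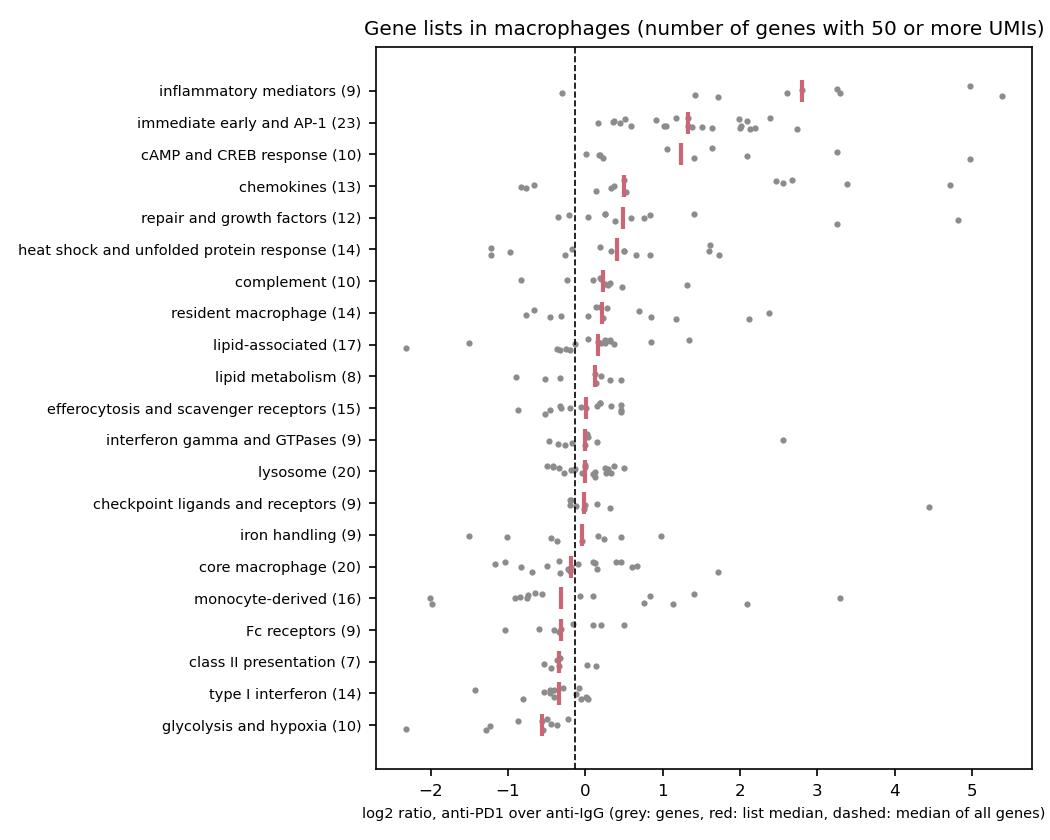
Log2 ratio of the anti-PD1 over the anti-IgG level for the genes of 21 lists with at least 5 measured genes; grey points are genes, red bars list medians and the dashed line the median of all 2525 genes (-0.13). Inflammatory mediators (2.80) and immediate early genes (1.33) have the highest medians, glycolysis and hypoxia (-0.56) the lowest.

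Inflammatory genes, chosen with their ratio over all members known, were also described by class. The summed level of Cxcl1, Cxcl2, Il1b, Tnf, Ccl3, Ccl4, Nlrp3 and Ptgs2 was 9.86 UMIs per 10000 in anti-IgG and 90.7 in anti-PD1 members. In TLF members it was 7.69 and 83.1, in Ccr2 members 13.8 and 136, and in members with neither 7.79 and 61.3. Single cells were uneven: 27 of 47 anti-IgG and 73 of 102 anti-PD1 members had a UMI of the 8 genes, and 1 and 44 had at least 50 per 10000, where both the 8 genes and this level were chosen after the values were seen. In the anti-PD1 library 20 of 48 TLF, 12 of 19 Ccr2 and 12 of 35 other members reached it, so that cells with little of these transcripts were present in every class there too. Il1b was at 0.157 in TLF and 2.55 in Ccr2 members of the anti-IgG library and at 5.57 and 27.1 in the anti-PD1 library, lower in TLF members in both. Hspa1b had a ratio of 38.7 (10.5 to 322) in TLF and 0.320 (0.143 to 0.670) in Ccr2 members, where 1 cell held 20 of the 26 anti-IgG UMIs, and this difference was not tested.

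The same genes were followed in the other barcodes of the same 2 libraries, as values side by side with no test. Of the 12 highest genes, 9 of 12 were also higher by 1.5 times in macrophage barcodes with lymphocyte transcripts (8.06% of all genes there), 7 of 12 in T cells (7.46%) and 9 of 10 with 20 or more UMIs in dendritic barcodes (10.3%). The dendritic barcodes held plasmacytoid markers at 59.0 and 64.0 UMIs per 10000 and endothelial markers at 59.2 in the anti-IgG and 14.8 in the anti-PD1 library, and the part of the latter in their ratios was not tested. The median ratio of the 12 highest genes was 2.15 in macrophage barcodes with lymphocyte transcripts, 1.95 in T cells and 2.32 in dendritic barcodes. Of the 12 lowest, 4 (13.8% of all genes), 1 (14.7%) and 2 (17.5%) were past the fold. Cxcl2 had ratios of 10.4 in members, 3.39 in macrophage barcodes with lymphocyte transcripts and 2.15 in T cells. Ddit4 was lower in all 4 sets, with ratios of 0.201, 0.387, 0.477 and 0.194, and Nr4a1 higher in all 4, with 4.25, 5.90, 4.73 and 4.67. The genes that define the classes had other ratios in the macrophage barcodes with lymphocyte transcripts: Lyve1 had a ratio of 4.32 in members and 0.593 (0.475 to 0.739) there, Ly6c2 0.254 and 1.10, and Ccr2 0.531 and 0.976, where Ly6c2 and Ccr2 also come from T cells. Part of the activation pattern was thus seen in lymphocytes of the same library, and a difference between the preparations of the 2 libraries was not tested.

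**Figure D5:**
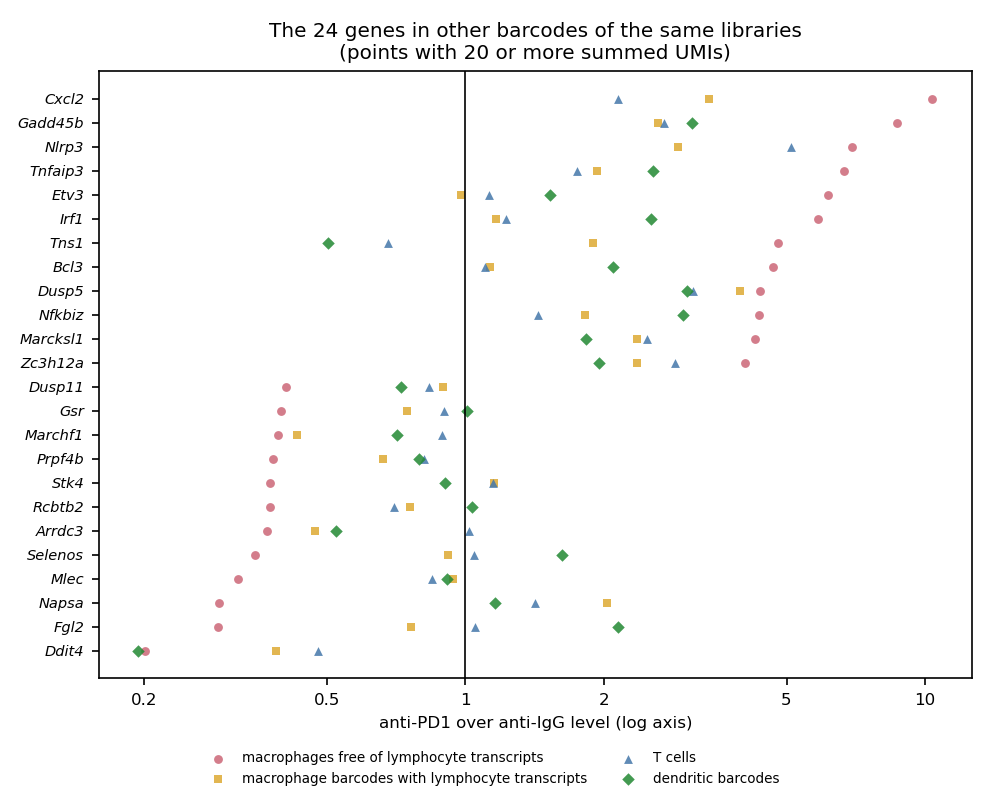
Ratio of the anti-PD1 over the anti-IgG level (log axis) of the 24 named genes in macrophages free of lymphocyte transcripts (circles), macrophage barcodes with lymphocyte transcripts (squares), T cells (triangles) and dendritic barcodes (diamonds); points with 20 or more summed UMIs are shown. For Cxcl2 the ratio is 10.4 in the members and 2.15 in T cells, and Ddit4 lies below 0.5 in all 4 sets.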

How the data were processed

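Single cells were captured with a droplet 3′ kit, per the labels' protocols, and each deposited matrix gives UMI counts of genes in barcodes, left unnormalized by the authors. Per the file headers the counts came from Cell Ranger 7.1.0, whereas the submitters' processing notes list mm10, Seurat 4.4.0 and Cell Ranger 7.2.0. No gene annotation is named by them. The rule that selects the members, the gene lists and the other alternatives were chosen with earlier results of these data known.

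Levels are a gene's UMIs over all UMIs of the members of a library, computed in Python 3.11.15 with numpy 2.4.6, scipy 1.17.1 and pandas 2.3.3. Ratios have exact 95% intervals conditional on the summed UMIs, and shares have Clopper-Pearson intervals. Both cover counting error only and are too narrow for genes whose UMIs lie in few cells. For ratios and list medians, 3 counts stood in for a library with 0. T cells had at least 2 Cd3 UMIs and at most 1 of the selecting genes. Dendritic barcodes had no lymphocyte transcript, fewer than 5 UMIs of the selecting genes and at least 2 dendritic UMIs. Scrublet (scanpy 1.11.5) marked 0 barcodes automatically, so doublets were kept, and the 149 and 272 highest scores were left out as an alternative (1 and 0 members). Clusters of members used 1000 variable genes, 20 components (scikit-learn 1.9.0), 15 neighbours and leidenalg 0.10.2 at resolution 0.6. Figures used matplotlib 3.10.9. The ratio code was tested on simulated data.

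The genes named for the highest and lowest ratios (12 each) had 50 or more summed UMIs, a 1.5-fold difference, an interval without 1, at least 10 cells with a UMI and no cell above 25% of a library's UMIs, a limit applied in both libraries, a reading settled after the values were seen. Genes of the 22 lists could be named too. Of 485 list and marker symbols 482 matched. Lists share some genes.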

Additional observations from a re-analysis of the deposited data

Results flagged for a closer look

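In all, 5 genes past the fold in the macrophages went the opposite way in the T cells of the same libraries, past the fold there as well. None of these differences was tested, since each group is 1 library. Fn1, which encodes fibronectin, had an anti-PD1 over anti-IgG ratio of 1.79 in macrophages and 0.0982 in T cells, where 160 and 20 UMIs were counted. In the macrophages 1 anti-PD1 cell held 151 of its 336 UMIs, and without the 5 members highest in inflammatory genes in each library the ratio was 1.21 (0.924 to 1.60). Cenpa, a centromere protein of dividing cells, had 0.343 in macrophages (32 and 20 UMIs) and 1.60 in T cells. Hspa1a and Hspa1b, the inducible Hsp70 genes, had 3.07 and 3.31 in macrophages and 0.516 and 0.497 in T cells. Hspa1a was seen in 31.9% of anti-IgG and 31.4% of anti-PD1 macrophages, or 15.2% and 24.7% after thinning. In the anti-PD1 library 3 cells held 138 of its 330 UMIs. For Hspa1b, 3 cells held 26 of 28 anti-IgG UMIs and 3 cells 106 of 169 anti-PD1 UMIs. Xbp1, a regulator of the unfolded protein response, had 0.508 in macrophages and 1.65 in T cells.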

How the results depend on the processing

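No paired analysis was possible because each group is 1 library, and no replicate could be left out. The 24 named genes kept their direction and passed the fold under every alternative that could measure them (8 of 24 after thinning and 19 of 24 in TLF members only), except Gsr among members with C1q (0.796). Over all alternatives the ratio of Cxcl2 ran from 10.1 to 14.2, that of Il1b from 5.38 to 35.5, that of Lyve1 from 3.29 to 5.64 and the median log2 ratio of immediate early genes from 1.29 to 1.69.

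With at least 1 C1q UMI per member the anti-IgG Ccr2 share was 12.8%. Thinning to 1000 UMIs gave Ccr2 shares of 13.04% and 6.45%, 55 higher and 35 lower genes, median log2 ratios of 1.25 for monocyte-derived genes and 2.05 for inflammatory mediators, and a ratio of 1.05 for Ccl7. A minimum of 20 summed UMIs gave 590 higher and 1127 lower genes and a chemokine median of 1.38, and a minimum of 200 gave 72 and 37 genes and a monocyte-derived median of 0.84, since these change which genes are tested. At least 1000 genes per barcode moved the cell cycle median to -0.0268. Leaving out the highest doublet scores gave Fabp4 1.27, and weighting each cell alike gave Ccl2 1.02 and Slc48a1 1.203. Slc48a1 was 0.495 in the main comparison.

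Alternatives chosen after seeing the data followed. Without the 5 members highest in inflammatory genes in each library, the medians were 1.24 for chemokines and 0.61 for cAMP genes, and the ratios were 0.788 for Chil3, 1.31 for Ccl2 and 2.37 for Ccl7. In TLF members only, 177 genes were lower, and the medians were 0.74 for monocyte-derived, -0.43 for lipid-associated, 1.55 for chemokine, 2.19 for inflammatory, 0.28 for type I interferon and 1.32 for heat shock genes. The ratios that turned there were Ms4a7 0.515, Mgl2 1.21, Plac8 3.27, S100a4 1.66, S100a6 1.04, Thbs1 0.168, Ccl2 2.35, Ccl7 4.6, Isg15 1.76 and Xbp1 1.10. The value for Plac8 rests on the floor of 3 counts, since TLF members of the anti-IgG library had 0 UMIs. For Thbs1, 1 cell held 31 of the 32 UMIs in those members. For the other values that moved, the cause was not tested. Genes with under 20 summed UMIs were left out of the alternatives, a limit set after the values were seen.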

Other observations

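A few genes of macrophage activation were seen in few or no members, chosen after their values were seen. Nos2, the inducible nitric oxide synthase, had 0 UMIs in anti-IgG and 1 in anti-PD1 members, and the chemokine gene Cxcl9 had 0 in both libraries. Arg1, arginase 1, had 28 UMIs in 4 anti-IgG cells and 44 in 5 anti-PD1 cells, a ratio of 0.862. The scavenger receptor gene Marco had 0 and 1.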
